A study of Mus with 15 samples.

Results

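The genes of the mouse proteasome, the protease complex that degrades ubiquitin-tagged proteins, were examined in fat grafts by RNA sequencing. Members were all protein-coding genes whose symbol is Psm followed by a letter from a to g, a number and at most 1 further letter. This gave 49 of the 55471 genes in the matrix, and 49 of its 21933 protein-coding genes. Of these, 5 encode interferon-inducible subunits (Psmb8, Psmb9, Psmb10, Psme1 and Psme2) and are called immunoproteasome members. The other 44 are called constitutive members.

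Adipose tissue of wild-type C57BL/6 mice aged 7 weeks was sequenced, with 5 control samples, 5 grafts taken at day 3 and 5 grafts taken at day 7. Strain, genotype, age and tissue were shared by all 15 samples per the labels, which name no further treatment. The fat depot, the graft site and the relation of donor to host were not given in the sources used here, nor whether samples of a group came from separate animals. The p-values therefore measure the spread between these samples, which may be technical.

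The barrel-shaped core of the proteasome is a stack of alpha and beta rings, and the beta ring holds its cutting sites in Psmb5, Psmb6 and Psmb7. A regulatory cap of ATPases (Psmc genes) and other subunits (Psmd genes) recognises, unfolds and feeds in ubiquitinated proteins. Interferon gamma induces Psmb8, Psmb9 and Psmb10, which take the places of Psmb5, Psmb6 and Psmb7 in newly built cores, and Psme1 and Psme2, whose products form the PA28 activator ring. The resulting immunoproteasome is known for making peptides that MHC class I molecules display, and lymphocytes and dendritic cells carry much of it even without stimulation. Adipocytes also depend on proteasome supply, for which the transcription factor Nfe2l1 is known in brown fat.

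The libraries held 17.1 to 32 M estimated counts each. Lymph node markers were high in most controls: the summed CPM (counts scaled by library size) of 5 lymph node structure markers was 629 to 737 in 4 controls, 42.3 in control 4, 7.60 to 48.6 in the day 3 grafts and 1.47 to 126 in the day 7 grafts. Control 4 stood apart, with the largest control library and the highest summed CPM of 8 adipocyte markers (43811, against 15042 to 20418 in the other controls). Its scaling factor was 0.746, against 0.982 to 1.14 in the other controls, which raises all its scaled CPM values. Control 2 had the highest sum of 7 skeletal muscle markers (3274 CPM), and control 5 the highest control sums of 8 macrophage markers (3325 CPM, against 1191 to 1441) and 5 neutrophil markers (154 CPM, against 19 to 34.3). The adipocyte markers, which define the labelled tissue, summed to 1975 to 7098 CPM at day 3 and to 1030 to 2289 CPM at day 7. In bulk tissue, fewer cells of a type and less RNA per cell cannot be told apart.

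Of the 49 members, 48 entered the tests and 47 of these were past the limit of 0.389 CPM in every sample. A member was called at an adjusted p under 0.05 in the limma-voom fit, in which p-values were adjusted over 16051 genes. All 5 immunoproteasome members fell from control to day 7, and 2 of the 5 (Psmb9 and Psme2) had fallen by day 3. Of 43 constitutive members tested, 20 were higher and 1 (Psme2b) lower at day 3. Higher at day 7 were 9, and 3 were lower (Psmd4, Psmf1 and Psme2b). Psme2b, a near-identical copy of Psme2, counts as constitutive here only because it is not among the 5 immunoproteasome members. Between day 3 and day 7 no constitutive member was called by limma, while 3 of 5 immunoproteasome members fell. At an unadjusted p under 0.05, the last comparison holds 1 of 43 constitutive members (Psmd4, lower) and 5 of 5 immunoproteasome members, all lower.

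These counts stand against a large response of all genes. At day 3, 30.1% of all genes tested were called higher than in control and 30.3% lower. At day 7 these shares were 32.2% and 28.4%. Between day 3 and day 7 they were 3.18% and 1.71%. Of the constitutive members, 46.5% were called higher at day 3 and 20.9% at day 7, the latter below the share of all genes. The median log2 change of all genes was -0.02 at day 3, 0.03 at day 7 and 0.02 from day 3 to day 7. The median over the 5 immunoproteasome members was -0.30, -0.64 and -0.53 in the same comparisons, and over the 43 constitutive members it was 0.27, 0.20 and -0.09.

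Psmb9, the inducible subunit that replaces Psmb6, showed the largest fall. Its level was 62.3, 63.0, 89.6, 46.3 and 45.0 CPM in controls 1 to 5, 37.3, 28.8, 37.4, 31.6 and 36.0 CPM in the day 3 grafts and 26.1, 23.0, 25.2, 24.1 and 16.3 CPM in the day 7 grafts. No graft reached the lowest control, and no day 7 graft reached the lowest day 3 graft. The fitted log2 change was -0.80 ± 0.18 (SE, n = 5 per group, adjusted p = 0.00128 by limma) at day 3 and -1.39 ± 0.18 (adjusted p = 1.54e-05 by limma) at day 7. The change from day 3 to day 7, -0.58 ± 0.18 (adjusted p = 0.0825 by limma), did not pass the threshold, but it passed without control 3 or without control 4 (adjusted p = 0.0375 to 0.0472 by limma).

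Psmb8, the inducible chymotrypsin-like subunit that replaces Psmb5, had 135, 132, 177, 95.8 and 130 CPM in the controls and 124, 90.8, 119, 102 and 101 CPM in the day 3 grafts. In the day 7 grafts it had 75.6, 73.4, 79.9, 80.9 and 61.1 CPM. Control 4 lay among the day 3 grafts, and every day 7 graft was below every control and every day 3 graft. The log2 change at day 3 was -0.30 ± 0.14 (adjusted p = 0.0793 by limma), and it was -0.40 without control 4 (adjusted p = 0.0124 by limma). At day 7 it was -0.84 ± 0.14 against control (adjusted p = 0.000152 by limma) and -0.53 ± 0.14 against day 3 (adjusted p = 0.0451 by limma).

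Psmb10, which replaces Psmb7, behaved differently at day 3. Its level was 48.5, 46.8, 57.2, 41.1 and 35.3 CPM in the controls, 50.7, 42.2, 45.2, 40.9 and 42.1 CPM in the day 3 grafts and 28.4, 33.7, 32.6, 34.0 and 22.5 CPM in the day 7 grafts. The day 3 grafts lay within the range of the controls, and all day 7 grafts lay below both other groups. The log2 change was -0.03 ± 0.14 at day 3 (adjusted p = 0.838 by limma), -0.60 ± 0.14 at day 7 (adjusted p = 0.00195 by limma) and -0.56 ± 0.14 from day 3 to day 7 (adjusted p = 0.0334 by limma). The difference between Psmb9 and Psmb10 in their day 3 change was not tested.

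Psme1 encodes the alpha subunit of PA28. Its level was 117, 104, 139, 83.5 and 91.9 CPM in the controls, 103, 87.8, 108, 92.6 and 88.4 CPM in the day 3 grafts and 71.7, 68.5, 72.4, 61.4 and 64.7 CPM in the day 7 grafts. Controls and day 3 grafts overlapped, and the day 7 grafts were below all of them. The log2 change was -0.14 ± 0.12 at day 3 (adjusted p = 0.347 by limma), -0.64 ± 0.12 at day 7 (adjusted p = 0.000423 by limma) and -0.50 ± 0.12 from day 3 to day 7 (adjusted p = 0.0329 by limma).

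Psme2 encodes the beta subunit of PA28 and had the highest mean TPM (transcript abundance corrected for length) of the 5 in each group. It had 172, 149, 164, 177 and 143 CPM in the controls, 135, 121, 133, 118 and 130 CPM in the day 3 grafts and 108, 112, 108, 99.8 and 92.3 CPM in the day 7 grafts. The 3 groups formed separate steps with no overlap. The log2 change was -0.33 ± 0.09 at day 3 (adjusted p = 0.00434 by limma), -0.63 ± 0.09 at day 7 (adjusted p = 2.6e-05 by limma) and -0.29 ± 0.09 from day 3 to day 7 (adjusted p = 0.0676 by limma). Psme2b, a near-identical copy whose reads cannot be assigned with certainty, had 12.9 ± 2.51, 9.38 ± 1.70 and 7.28 ± 1.09 CPM (mean ± SD, n = 5), and its log2 change was -0.46 at day 3 and -0.81 at day 7 (adjusted p = 0.0248 and 0.000889 by limma).

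**Figure D1:**
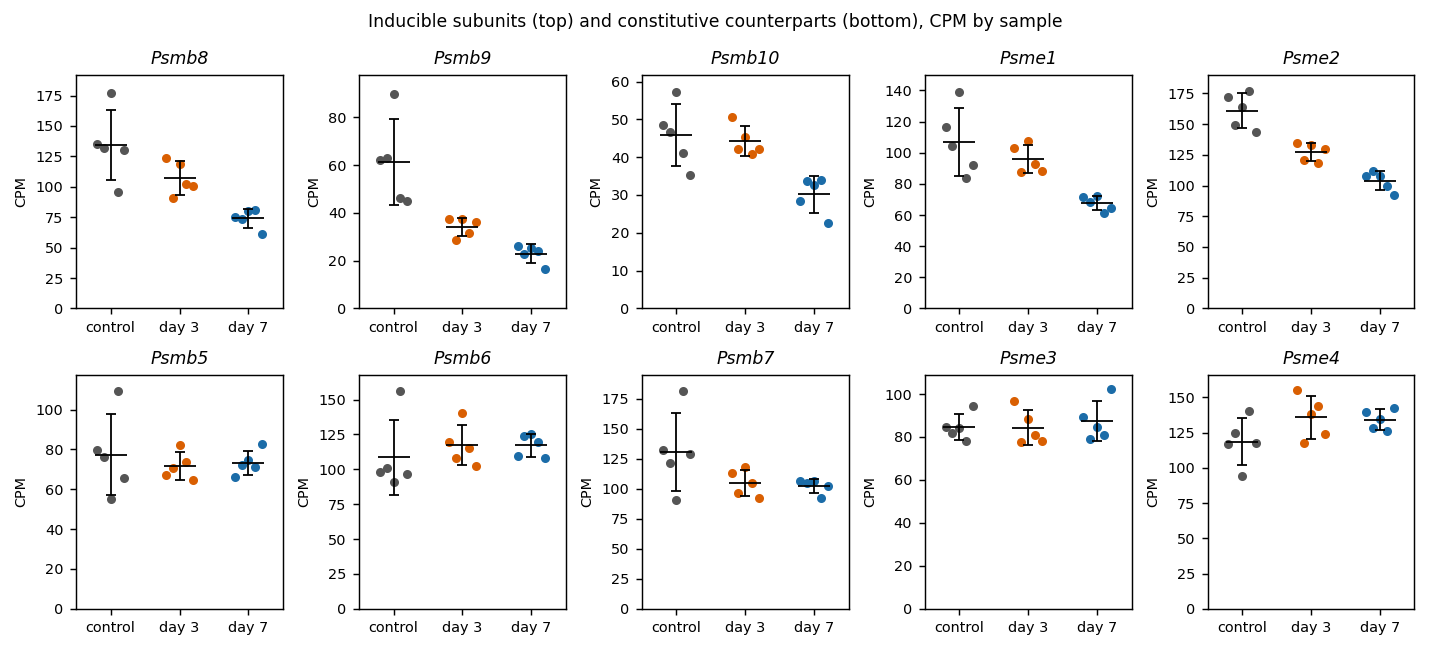
CPM of the 5 immunoproteasome genes (top) and of Psmb5, Psmb6, Psmb7, Psme3 and Psme4 (bottom) in control tissue, day 3 grafts and day 7 grafts; each point is 1 sample, and lines give the mean ± SD of 5 samples. In the top panels all day 7 grafts lie below all controls, for example at 16.3 to 26.1 CPM against 45.0 to 89.6 CPM for Psmb9. In the bottom panels the groups overlap. This contrast depends on the scale: in TPM, 0 of the 5 top genes are free of overlap between control and day 7. Psmb5, Psmb6 and Psme4 are then higher in all day 7 grafts than in all controls.

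The 5 calls at day 7 held without any 1 library. With the authors' TPM values, a scale on which the median of all genes moved by 0.22 at day 3 and by 0.33 at day 7, 1 of the 5 (Psmb9, adjusted p = 0.00328 by limma) was called at day 7 and none at day 3. Relative to that median, the 5 changes at day 7 on the TPM scale were -0.51 to -1.23. The 3 calls from day 3 to day 7 were weaker: the count was 0 of 5 without day 3 graft 1, 3, 4 or 5 or without day 7 graft 1, 2, 3 or 4, and 5 of 5 without control 4. The call of Psmb8 was also lost without control 1, control 2 or day 7 graft 5 and that of Psmb10 without day 3 graft 2. On scaled CPM the 5 members did not overlap between the day 7 grafts and either other group, but this depends on the scale. In TPM, 0 of the 5 were free of overlap between control and day 7 (3 of 5 without control 4, which were Psmb8, Psmb9 and Psme1), and 1 of 5 (Psme1) between day 3 and day 7. At day 3 against control, Psmb9 and Psme2 were free of overlap on scaled CPM and none of the 5 was in TPM. The share of all genes free of overlap was not counted. These counts therefore describe the 5 members only and do not set them apart from other genes.

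The constitutive partners of these genes and the activators Psme3 and Psme4 did not pass limma's test of the counts in any comparison. At an unadjusted p under 0.05 they numbered 0 of 5 at day 3, 1 of 5 (Psmb7, lower) at day 7 and 0 of 5 between the graft times. On the TPM scale Psmb5 (0.21 and 0.36, adjusted p = 0.041 and 0.00125 by limma), Psmb6 (0.41 and 0.54, adjusted p = 0.00455 and 0.000542) and Psme4 (0.49 and 0.55, adjusted p = 0.000276 and 8.76e-05) were called higher at both times. Psme3 was called higher at day 7 on that scale (0.43, adjusted p = 0.0245 by limma). These values stand against shifts of 0.22 and 0.33 in the median of all genes. Psmb5, the constitutive chymotrypsin-like subunit, had 79.9, 76.5, 55.4, 109 and 65.6 CPM in the controls, 67.3, 70.8, 82.3, 73.5 and 64.5 CPM in the day 3 grafts and 66.0, 72.3, 74.7, 71.3 and 82.6 CPM in the day 7 grafts. Psmb6, the caspase-like subunit, had 98.3, 101, 91.2, 156 and 96.9 CPM, then 120, 108, 140, 116 and 103 CPM, then 109, 124, 125, 120 and 108 CPM. Psmb7, the trypsin-like subunit, had 132, 121, 90.5, 181 and 129 CPM, then 113, 96.6, 118, 105 and 92.1 CPM, then 106, 105, 107, 92.4 and 102 CPM. On scaled CPM, control 4 was the highest sample of all 15 for each of these 3 subunits, while in TPM it was the highest for none of them. Without it the controls spanned 55.4 to 79.9, 91.2 to 101 and 90.5 to 132 CPM. In TPM every graft was above every control for Psmb6, and every day 7 graft was above every control for Psmb5. For Psmb7 the groups overlapped in TPM. The share of all genes free of overlap on that scale was not counted.

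Psme3 encodes PA28 gamma, a nuclear activator that interferon does not induce, and Psme4 encodes the activator PA200. Psme3 had 84.8, 81.7, 84.3, 78.3 and 94.4 CPM in the controls, 96.8, 77.6, 88.2, 81.1 and 78.0 CPM in the day 3 grafts and 89.1, 78.9, 84.9, 81.0 and 102 CPM in the day 7 grafts. Psme4 had 117, 125, 94.2, 140 and 118 CPM, then 155, 118, 138, 144 and 124 CPM, then 140, 128, 135, 126 and 143 CPM. On scaled CPM each group overlapped the other groups for both genes. In TPM this held for Psme3 only. Psme4 had 19.8 to 25.1 TPM in the controls, 30.4 to 37.3 TPM at day 3 and 31.8 to 35.7 TPM at day 7, with no overlap between controls and grafts.

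Within a sample, the share of the inducible gene in each pair does not depend on how samples are scaled to each other. It was taken from the TPM values. Psmb8 made up 58.3 ± 10.7% of Psmb8 plus Psmb5 in the controls (SD, n = 5), 55.3 ± 3.54% at day 3 and 45.4 ± 4.68% at day 7. Psmb9 made up 22.4 ± 6.80% of Psmb9 plus Psmb6, then 14.1 ± 1.47% and 9.30 ± 1.62%. Psmb10 made up 35.3 ± 8.02% of Psmb10 plus Psmb7, then 39.4 ± 2.57% and 31.1 ± 2.86%. Psmb8 thus had the largest and Psmb9 the smallest share of its catalytic pair in each group mean, and control 4 had the lowest control share for Psmb8 (42.2%) and Psmb9 (13.7%).

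Against Psme3, Psme1 made up 73.1 ± 3.39% of the pair in the controls (SD, n = 5), then 71.2 ± 1.31% and 63.2 ± 3.04%. Psme2 made up 82.8 ± 2.52%, 78.8 ± 0.508% and 75.3 ± 4.64% of its pair with Psme3.

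**Figure D2:**
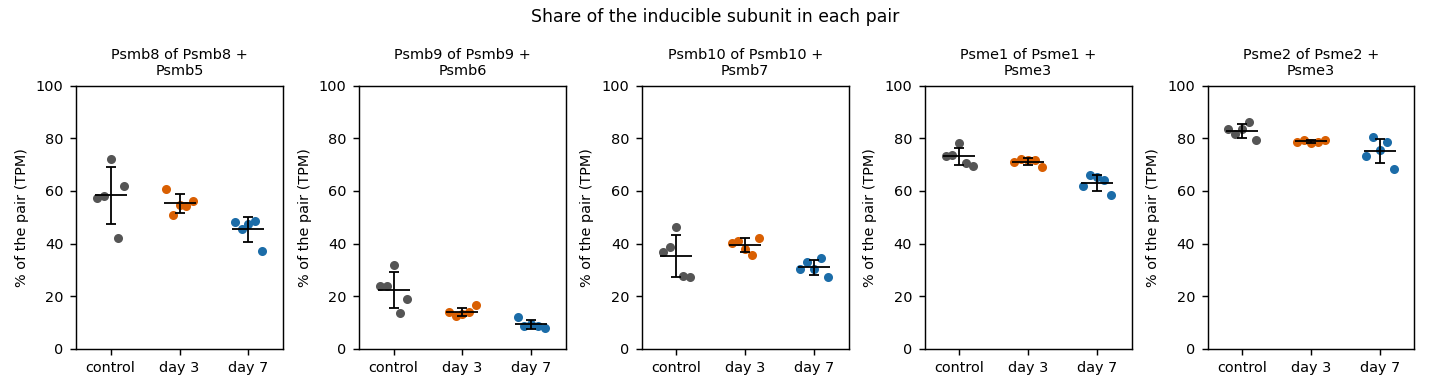
Share of the inducible gene in the summed TPM of each pair, in percent, by sample in control tissue, day 3 grafts and day 7 grafts; lines give the mean ± SD of 5 samples. The share of Psmb9 falls from 22.4% to 14.1% and 9.30% in the group means, and the spread is widest in the controls for each pair but that of Psme2 (SD 2.52% in the controls and 4.64% at day 7).

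The log2 ratio of each pair was compared in 15 exact two-sided permutation tests, for which the smallest possible p is 0.00794. Between the graft times the ratio fell in 4 of the 5 pairs, with differences of -0.57 for Psmb8 to Psmb5, -0.68 for Psmb9 to Psmb6, -0.53 for Psmb10 to Psmb7 and -0.52 for Psme1 to Psme3 (adjusted p = 0.0198 each by the exact permutation test, with no overlap of samples). For Psme2 to Psme3 the difference was -0.27 (adjusted p = 0.195 by the exact permutation test). From control to day 7 the ratio fell by 1.46 for Psmb9 to Psmb6 and by 0.67 for Psme1 to Psme3 (adjusted p = 0.0198 by the exact permutation test), and by 0.65 for Psme2 to Psme3 (adjusted p = 0.0298). This last p was 0.0529 without control 1 or 2 and 0.0595 without control 3.

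For Psmb8 to Psmb5 the ratio differed by -0.77 from control to day 7 (adjusted p = 0.0595 by the exact permutation test), and by -1.01 without control 4 (adjusted p = 0.0149). For Psmb10 to Psmb7 it differed by -0.26 (adjusted p = 0.332 by the exact permutation test). At day 3 against control only Psme2 to Psme3 passed, with a difference of -0.38 (adjusted p = 0.0298 by the exact permutation test). Psmb9 to Psmb6 differed by -0.78 at day 3 (adjusted p = 0.0529 by the exact permutation test), and by -0.98 without control 4 (adjusted p = 0.0149). In all, 8 of the 15 tests passed.

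The constitutive members were higher at day 3 mostly in the alpha ring and the regulatory cap. In the alpha ring, which forms the gate of the core, 5 of 7 members rose at day 3 (Psma2, Psma3, Psma4, Psma5 and Psma7). This is 71.4%, against 30.1% of all genes. At day 7, 2 of 7 were higher (28.6%), against 32.2% of all genes. Psma5 had 71.5, 70.7, 64.4, 94.2 and 81.9 CPM in the controls, 133, 98.7, 125, 120 and 98.6 CPM in the day 3 grafts and 117, 108, 113, 107 and 132 CPM in the day 7 grafts. Every graft was above every control, and the log2 change was 0.59 ± 0.12 at day 3 and 0.60 ± 0.12 at day 7 (adjusted p = 0.000635 and 0.000541 by limma). Psma7 rose by 0.43 at day 3 and by 0.33 at day 7 (adjusted p = 0.00585 and 0.0253 by limma), with control 4 (142 CPM) among the grafts (125 to 166 CPM). In TPM control 4 was the lowest control for Psma7, with 170 to 218 in the controls and 255 to 338 in the grafts. Of the 4 beta subunits without a cutting site, Psmb4 (log2 change 0.32) and Psmb2 (0.30) rose at day 3, or 50%, against 30.1% of all genes. None of the 4 was called at day 7.

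Among the 6 ATPases that unfold substrates, 4 rose at day 3 and 2 at day 7, or 66.7% and 33.3%, against 30.1% and 32.2% of all genes. Psmc6 had a log2 change of 0.50 at day 3 and 0.31 at day 7 (adjusted p = 0.00268 and 0.0377 by limma), from 92.2 ± 17 CPM in the controls to 129 ± 15.6 and 113 ± 7.33 CPM. Psmc4 rose by 0.39 at day 3 (adjusted p = 0.00593 by limma), and Psmc3 by 0.30 at day 7 (adjusted p = 0.0216 by limma). Of the 14 Psmd genes, 7 rose at day 3 (50%) and 4 at day 7 (28.6%). The day 7 shares are thus near that of all genes.

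Psmd8, a lid subunit of the cap, had the largest rise at day 3 among the 47 members past the CPM limit in every sample. Its level was 122, 115, 100, 172 and 124 CPM in the controls, 207, 169, 252, 216 and 184 CPM in the day 3 grafts and 165, 178, 177, 171 and 203 CPM in the day 7 grafts. Without control 4 (172 CPM) all controls were below all grafts. In TPM the controls had 123 to 140 and the grafts 216 to 304. The log2 change was 0.71 ± 0.14 at day 3 and 0.52 ± 0.14 at day 7 (adjusted p = 0.000506 and 0.00496 by limma). Psmd10, or gankyrin, a chaperone of base assembly, went from 20.4 ± 2.19 CPM to 29.2 ± 3.23 and 25.8 ± 2.60 CPM (log2 change 0.51 at day 3, adjusted p = 0.0011 by limma) and was called higher at both times. The 2 other base chaperones in this group, Psmd5 and Psmd9, were not called.

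Some constitutive members moved the other way, among them Psme2b, described above with Psme2. Psmd4, a ubiquitin receptor of the cap, had 121, 134, 108, 179 and 108 CPM in the controls, 104, 109, 112, 105 and 98.2 CPM in the day 3 grafts and 79.7, 80.9, 94.2, 81.5 and 97.7 CPM in the day 7 grafts. All day 7 grafts were below both other groups, and the log2 change at day 7 was -0.56 ± 0.12 (adjusted p = 0.00131 by limma). In TPM the groups overlapped, and the change of Psmd4 on that scale was -0.15 (adjusted p = 0.149 by limma). Psmf1, which encodes the proteasome inhibitor PI31, went from 26.3 ± 2.40 CPM in the controls to 22.3 ± 1.52 CPM at day 7 with overlapping samples (log2 change -0.24, adjusted p = 0.0307 by limma). On the TPM scale the change of Psmf1 was 0.19. Its call was also lost by library totals (-0.15, adjusted p = 0.182 by limma), with no filter on low counts (adjusted p = 0.106), with a replicate block (adjusted p = 0.0566) and without control 2, control 4 or day 7 graft 1, 2, 3 or 4 (adjusted p = 0.0545 to 0.0850 by limma). Of the 4 core assembly chaperones Psmg1 to Psmg4, only Psmg3 was called, at day 3 (8.71 ± 0.634 CPM in the controls and 10.4 ± 0.637 CPM at day 3, log2 change 0.25, adjusted p = 0.0457 by limma).

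**Figure D3:**
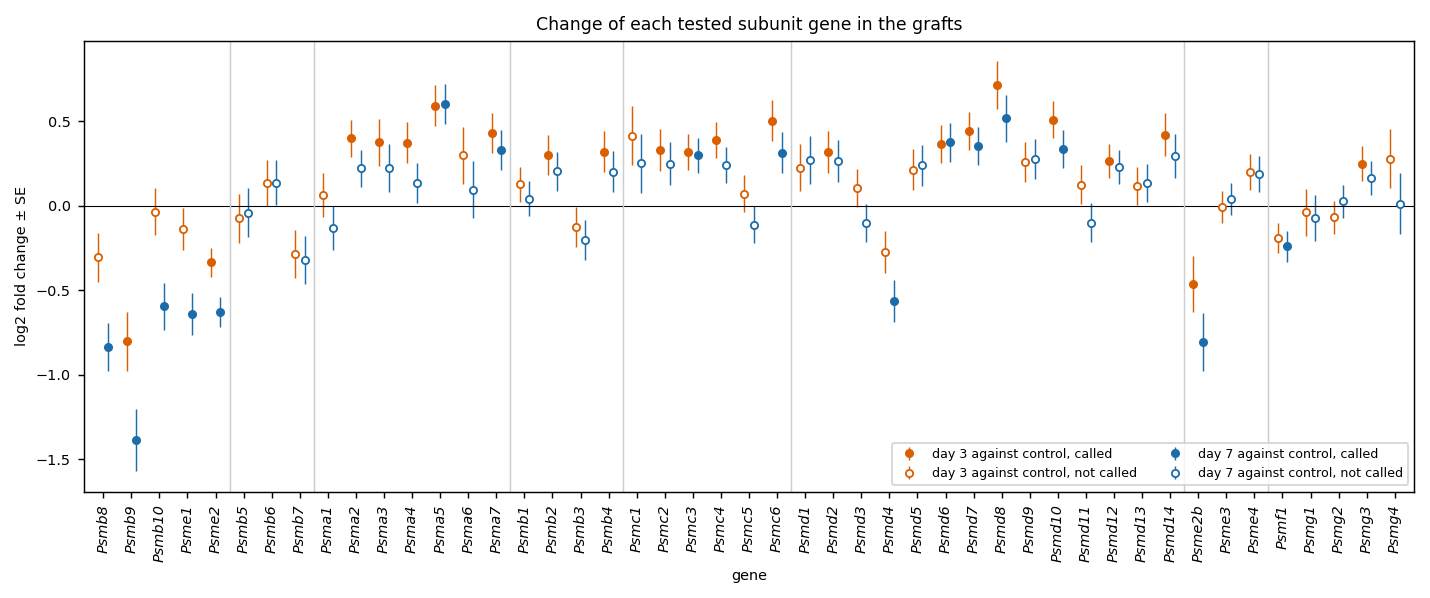
Fitted log2 fold change ± SE of each member past the CPM limit in every sample, day 3 grafts (orange) and day 7 grafts (blue) against control, with filled points called at an adjusted p under 0.05 and grey lines between structural groups. The 5 immunoproteasome genes at the left lie below 0, with 5 of 5 called at day 7, and most alpha ring and cap genes lie above 0, with the highest at 0.71 for Psmd8.

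How many constitutive members were called depended on the controls. The count of higher members at day 3 (20) was 13 without control 1 or without control 2 and 31 without control 4, and at day 7 (9) it was 25 without control 4. On the TPM scale the counts were 36 and 37. On that scale 57.7% of all genes were called in either direction at day 3 and 62.2% at day 7. The median of all genes moved by 0.22 and 0.33 there, and the share of all genes called higher was not counted. Calls lost without 1 library were those of Psmb4 (controls 1, 2 or 3 or day 3 graft 4), Psmb2 (controls 1, 2 or 3 or day 3 graft 1, 3 or 4), Psmg3 (controls 1, 2 or 5, day 3 graft 1, 2, 3 or 5 or day 7 graft 2, 4 or 5) and Psme2b (control 1 or 3 or day 3 graft 2 or 4) at day 3. At day 7 they were those of Psma7 (control 1, 2 or 3 or day 7 graft 5), Psmc6 (control 1, 2 or 3, day 3 graft 4 or day 7 graft 1, 3 or 5) and Psmc3 (control 3). Over these 7 calls the adjusted p by limma was 0.0504 to 0.102. Calls of Psma5, Psmd8 and Psmd10 held at day 3 without any 1 library, and those of Psma5 and Psmd8 at day 7 as well.

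The 2 remaining members are tissue-restricted. Psma8, the testis form of Psma7, had 4, 1, 3, 1 and 6 counts in the controls, 36, 25, 26, 42 and 32 counts in the day 3 grafts and 40, 38, 46, 20 and 26 counts in the day 7 grafts. All grafts were above all controls, but the gene passed the CPM limit in none of 5 controls and in 5 of 5 grafts at each time, so it entered the test only through the grafts. Its fitted log2 change of 3.09 at both times depends on the offset used at low counts, and reads shared with Psma7 make it uncertain. Without it, 19 of 42 constitutive members were higher at day 3 and 8 of 42 at day 7. Psmb11, the thymus subunit, had 2 counts in all, both in day 7 graft 4, and was not tested.

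The core subunits were unequal in level. In TPM, the 14 constitutive core genes in the controls ran from 71.9 TPM for Psma2 to 231 TPM for Psma3, with a median of 174 TPM. The same genes marked the ends at day 3 (120 and 373 TPM) and at day 7 (109 and 359 TPM), where the medians were 230 and 231 TPM. On this scale the inducible Psmb9 was at 64.5 ± 26.9 TPM in the controls and 32.6 ± 7.00 TPM at day 7 (SD, n = 5), in both groups below the lowest constitutive core gene.

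Some of the falling genes lie close together. In the coordinates of the authors' matrix, which used mouse build mm10, Psmb9 (chr17:34181987-34187764) and Psmb8 (chr17:34197721-34201454) lie in the MHC region with Tap1 between them. Psme1 (chr14:55578123-55581529) and Psme2 (chr14:55587441-55591113) have 1 other protein-coding gene between them. Psmb10 (chr8:105935735-105938444) lies apart from these.

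Proteins that serve the proteasome were read from a list of 20 partners and assembly factors, of which 19 were found and tested. At day 3, 10 of the 19 were higher and 3 lower, and at day 7, 10 were higher and 4 lower. Among all genes tested, 30.1% were higher and 30.3% lower at day 3, and 32.2% and 28.4% at day 7. The counts of lower partners are below these shares. Zfand2a, a stress-induced cap-binding protein, had log2 changes of 1.17 and 1.27. Sem1, a small lid subunit, had 1.06 and 0.74, and Rad23b, a shuttle that brings ubiquitinated proteins to the cap, had 0.65 and 0.67. Lower were the shuttle Ubqln1 (-0.67 and -0.79) and Ufd1, a cofactor of the segregase Vcp (-0.38 and -0.46). On the TPM scale the changes of Ufd1 were -0.079 and -0.080 and were not called. None of the 19 was called by limma from day 3 to day 7, when 3 were lower at an unadjusted p under 0.05.

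Of 5 genes for ubiquitin and its activation, 2 were higher and 3 were not called at either graft time. For comparison, 30.1% of all genes were higher at day 3 and 32.2% at day 7. Rps27a, a ubiquitin fusion gene, rose by 0.75 at day 3 and 0.75 at day 7, and the activating enzyme Uba6 by 0.46 and 0.35. The call of Uba6 at day 7 was lost without control 1, 2, 3 or 5, day 3 graft 4 or day 7 graft 1, 2 or 4 (adjusted p = 0.0533 to 0.0958 by limma).

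Among 7 regulators of subunit transcription, 4 were higher and 2 lower at day 3, and 3 were higher and 2 lower at day 7. Over all genes the shares were 30.1% higher and 30.3% lower at day 3, and 32.2% and 28.4% at day 7. The counts of lower regulators are near these shares. Nfe2l1, the factor that restores subunit transcription when proteasome activity drops, fell by 0.62 at day 3 and by 0.83 at day 7 (adjusted p = 0.00468 and 0.000476 by limma). Ngly1, the glycanase that processes the Nfe2l1 protein, fell by 0.58 and by 0.71, and on the TPM scale by 0.20 and by 0.18 without a call. Nfe2l2, the oxidative stress factor that also targets subunit genes, rose by 1.04 and 0.81 (adjusted p = 1.92e-05 and 0.000144 by limma). The small Maf partners Maff (2.65 and 1.51) and Mafg (0.67 and 0.48) rose too. Mafk was the only member called from day 3 to day 7 (-0.73), and this call was lost without day 3 graft 3, 4 or 5 or day 7 graft 1, 2 or 3 (adjusted p = 0.0501 to 0.0698 by limma).

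Of 11 inducers of immunoproteasome genes, 9 were tested, of which 3 were higher and 2 lower at day 3, and 2 higher and 2 lower at day 7. These counts are close to or below the shares of all genes (30.1% higher and 30.3% lower at day 3, 32.2% and 28.4% at day 7). Irf1, a transcription factor that binds the promoters of inducible subunits, had log2 changes of -0.68 at day 3 and -0.83 at day 7 (adjusted p = 0.0113 and 0.00313 by limma), and Nlrc5, the transactivator of MHC class I genes, had -0.65 and -1.28. The receptor chains Ifngr2 (1.33 and 1.16) and Ifnar1 (1.13 and 0.96) rose at both times and Ifnar2 (0.61) at day 3. At day 3 the call of Nlrc5 was lost without control 3 (adjusted p = 0.0544 by limma), by library totals (0.0765), with no filter on low counts (0.0593) and on the TPM scale (0.281). On the TPM scale the changes of Irf1 were -0.38 and -0.42 and were not called (adjusted p = 0.256 and 0.200 by limma). The 4 remaining tested inducers were not called at either time. Interferon gamma itself (Ifng) had a mean of 0.319 CPM in the controls, 0.0789 CPM at day 3 and 0.166 CPM at day 7, too low to test, and Ifnb1 was also not tested.

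Of 10 genes that load peptides onto MHC class I, 3 were higher and 2 lower at day 3. At day 7, 3 were higher and 7 lower, and 3 were lower from day 3 to day 7. Background shares in the same fit were 30.1% up and 30.3% down at day 3, then 32.2% up and 28.4% down at day 7. Between the graft times 1.71% went down. The counts of higher loading genes are thus near the background, and the 2 lower at day 3 are below it. Above it are the 7 lower at day 7 and the 3 lower between the graft times. The peptide transporter genes Tap2 (-0.95 and -1.42) and Tap1 (-1.19 at day 7) and the class I heavy chain H2-K1 (-0.48 and -1.17) fell. H2-K1, Tapbp and B2m were the 3 that fell from day 3 to day 7 (-0.68, -0.61 and -0.59), and the call of B2m was lost without day 3 graft 1, 3, 4 or 5 or day 7 graft 2, 3 or 4 (adjusted p = 0.0568 to 0.0841 by limma). On the TPM scale the calls of Tap1 at day 7 (-0.73, adjusted p = 0.0509), H2-K1 at day 3 (-0.14, adjusted p = 0.343) and Tapbp and B2m from day 3 to day 7 (adjusted p = 0.0813 and 0.123 by limma) were lost. The 3 that rose were the general chaperones of the endoplasmic reticulum Pdia3 (1.42 and 1.48), Calr (1.04 and 0.96) and Canx (0.72 and 0.75), which are not specific to this pathway.

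**Figure D4:**
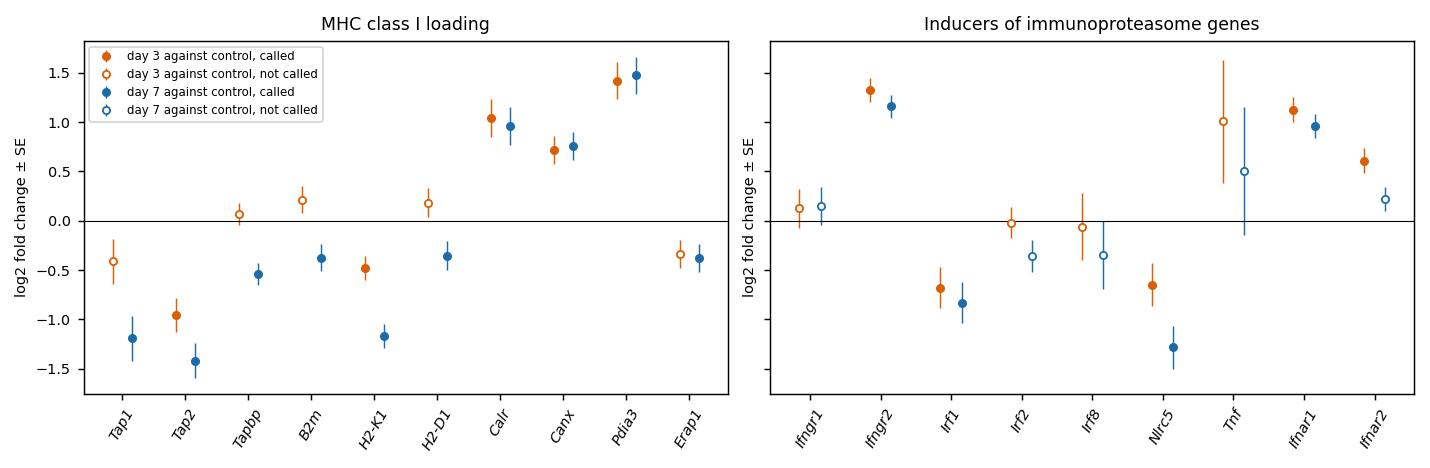
Fitted log2 fold change ± SE of 10 MHC class I loading genes (left) and 9 tested inducers of immunoproteasome genes (right), day 3 (orange) and day 7 grafts (blue) against control, filled where called at an adjusted p under 0.05. Tap1, Tap2, H2-K1, Irf1 and Nlrc5 lie below 0 at both times, with Tap1 not called at day 3, and Calr, Canx, Pdia3, Ifngr2 and Ifnar1 lie above 0.

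Markers of lymphocytes and dendritic cells mostly fell against control at both graft times. Of 5 B cell markers 5 fell at both times, with a summed level of 132 to 1646 CPM in the controls, 2.81 to 6.09 CPM at day 3 and 7.64 to 21.5 CPM at day 7. Of 8 T and NK cell markers 7 fell at both times, with sums of 23.7 to 504 CPM, then 2.35 to 11.2 CPM, then 5.12 to 24.6 CPM. All 5 dendritic cell markers fell, with sums of 41.8 to 166 CPM, then 12.9 to 23.1 CPM, then 16.7 to 25.8 CPM. All 5 lymph node structure markers found also fell, and Madcam1 was at 0 in every day 3 graft. None of the B, T and NK or dendritic cell markers was at 0 throughout a group.

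Macrophage markers moved the other way. All 8 rose at both times, and their sum went from 1191 to 3325 CPM in the controls to 4388 to 10398 CPM at day 3 and 8384 to 12022 CPM at day 7. Of 5 neutrophil markers 3 rose at both times, with sums of 19 to 154 CPM, then 70.6 to 424 CPM, then 151 to 915 CPM. Of 5 genes shared by all leukocytes Cd53 rose and 4 were not called at either time, with sums of 306 to 2306, 744 to 1577 and 1015 to 1322 CPM. All 8 adipocyte markers fell, 4 of them again from day 3 to day 7. Of 4 markers of dividing cells 2 rose at day 3 and 4 at day 7. None of 7 skeletal muscle markers was called by limma (4 and 2 lower at an unadjusted p under 0.05 at day 3 and day 7).

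The part of these cell types in the fall of the immunoproteasome members was not tested. The B cell, T and NK cell and lymph node sums of control 4 (132, 23.7 and 42.3 CPM) were below those of the other controls (1007 to 1646, 306 to 504 and 629 to 737 CPM). On scaled CPM, Psmb8 (95.8 CPM) and Psme1 (83.5 CPM) in control 4 were below all other controls, Psmb9 (46.3 CPM) and Psmb10 (41.1 CPM) were within their range, and Psme2 (177 CPM) was above it. In TPM control 4 was the lowest control for all 5 genes (97.6 for Psmb8, 36.3 for Psmb9, 60.6 for Psmb10, 81.7 for Psme1 and 210 for Psme2). On scaled CPM control 4 was above every day 7 graft for all 5 genes, and in TPM for none of them. Between the graft times none of the B cell, T and NK cell or dendritic cell markers was called by limma (1 of 18, Cd4, was higher at an unadjusted p under 0.05), the lymph node marker Madcam1 was higher and 4 adipocyte markers were lower. The median log2 change there was 1.25 for B cell, 1.11 for T and NK cell, 0.36 for dendritic cell and 0.14 for macrophage markers. It was 1.59 for lymph node structure markers, -1.49 for adipocyte markers and -0.53 for the 5 immunoproteasome members. The summed CPM of the lymph node structure markers went the other way in the group medians, 27.0 at day 3 and 3.82 at day 7. Day 7 graft 5 alone had 126 CPM.

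**Figure D5:**
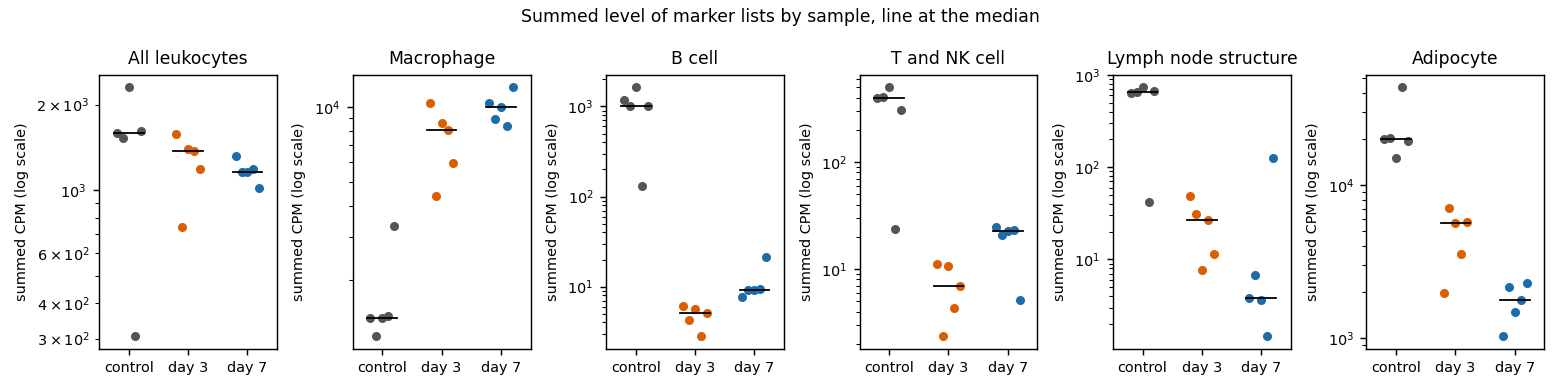
Summed CPM of 6 marker lists by sample on log axes, with a line at the group median. Control 4 lies apart from the other controls in the leukocyte, B cell, T and NK cell and lymph node panels (for B cells 132 against 1007 to 1646 CPM), and the macrophage panel rises from control to graft.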

How the data were processed

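Stranded mRNA libraries of 15 mouse adipose samples (5 control, 5 day 3, 5 day 7) were sequenced as paired reads, per the labels' protocols. Tools listed in the submitters' processing notes are STAR 2.7.1a, RSEM 1.3.1 and cutadapt 2.8, with build mm10; the notes give no roles, and the annotation was not stated in the sources used here. The authors deposited 1 matrix of 55471 genes with estimated counts (whole numbers written with digit separators, not entered as plain counts here), RPKM values (deposited, not used) and TPM values per sample. Identifiers and positions are the matrix's own.

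Genes entered the test at 0.389 CPM (10 counts in a library of median size) in 5 or more samples, with 15 or more counts in all (16051 genes). Scaling used trimmed means of M-values (trims of 30% and 5%). All 15 samples entered 1 limma-voom fit (limma 3.58.1, R 4.3.3, data.table version 1.17.8), with Benjamini-Hochberg adjustment over all genes tested. The planned fit was limma-voom because the columns, written with digit separators, were not entered as plain counts. The separators were removed before the fit. Within-sample log2 ratios of the deposited TPM, with no pseudocount, were compared by exact two-sided permutation tests (252 regroupings) adjusted over 15 tests. The fit was tested on simulated data.

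The members and gene lists were chosen with earlier results of these data known, so no list is independent evidence of its direction. Some list genes are not reported here and were left out of the list counts. Named were the inducible members with their counterparts, per structural group the 2 called members with the largest change in each comparison and up to 3 called against the majority, and per list up to 3 called genes in each direction; Psmd5, Psmd9, Psmd10 at day 7, Ifng, Ifnb1, Cd4, Cd53, Madcam1 and the called alpha ring members were named outside this rule. Alternatives changed the scaling, the filter, the groups fitted together, a replicate block, quality weights, the TPM scale, the denominators and single or paired libraries. Same-numbered samples of different groups deviated together in 5 of 15 pairs (r over 0.1), so numbers were not taken as pairs. Figures used Python 3.11.15, numpy 2.4.6, pandas 2.3.3 and matplotlib 3.10.9.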

Additional observations from a re-analysis of the deposited data

Results flagged for a closer look

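Among 45 groups of 5 values examined, 2 held a sample far from its group, by a gap to the nearest sample above 0.71 of the group's range. Chance flags about 1 in 20 groups. In control 4 the level of Psmb6 was 156 CPM, with a gap of 0.850 of the range of the controls (91.2 to 156 CPM). In TPM, which does not use the scaling factor of control 4, the other controls spanned 201 to 229 for Psmb6, and control 4 had 228. In day 7 graft 5 Psmb8 made up 37.3% of Psmb8 plus Psmb5, with a gap of 0.723 of the range of the day 7 grafts (37.3% to 48.6%).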

How the results depend on the processing

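The fall of all 5 immunoproteasome members at day 7 was called under 25 of 26 alternatives, with 1 called on the TPM scale, and the cause of such differences was not tested unless stated. TPM moved the median of all genes by over 0.1 (to 0.22 at day 3 and 0.33 at day 7), as did no filter on low counts (-0.18 and -0.12). With a replicate block the counts were 16 higher, 1 lower and 2 immunoproteasome members lower at day 3, 9, 2 and 5 at day 7, and 0, 0 and 3 from day 3 to day 7, and 4 of 15 samples correlated best with their own number. Constitutive members higher at day 3 numbered 13 by upper quartile scaling, 36 by TPM and 13 to 31 leaving out 1 library. At day 7 they numbered 23 by library totals, 5 with only 2 groups in the fit, 25 with quality weights, 37 by TPM and 6 to 25 leaving out 1 library. Constitutive members lower at day 3 numbered 2 by library totals, 4 by upper quartile, 0 without a filter, 3 at 1 CPM, 3 with weights, 0 by TPM and 0 to 2 leaving out 1 library. At day 7 they numbered 5 by upper quartile and 0 by TPM. From day 3 to day 7 they numbered 1 with 2 groups, 5 with weights, 1 without controls 2 and 4 and 0 to 1 leaving out 1 library. Immunoproteasome members lower numbered 0 at day 3 by TPM. From day 3 to day 7 they numbered 0 by library totals, without a filter, by TPM and without day 3 graft 1 and day 7 graft 5, 5 with 2 groups or weights, and 0 to 5 leaving out 1 library. Over the other 20S subunits as denominator the ratio differed by -0.96 for Psmb8 and -0.73 for Psmb10 at day 7 and by -0.94 for Psmb9 and -0.30 (reversed) for Psmb10 at day 3. As a ratio of counts it was -0.93 for Psmb9 at day 3 and -0.34 for Psme2 from day 3 to day 7. Without controls 2 and 4 it was -1.09 (Psmb8, day 7), -0.99 (Psmb9, day 3), -0.30 (Psme2, day 3) and -0.57 (Psme2, day 7). Without day 3 graft 1 and day 7 graft 5, which leaves fewer samples, adjusted p was 0.0536 for Psmb8 (-0.38), Psmb9 (-0.62), Psmb10 (-0.45) and Psme1 (-0.45) from day 3 to day 7, Psmb9 (-1.40), Psme1 (-0.60) and Psme2 (-0.53) at day 7 and Psme2 (-0.37) at day 3. Leaving out 1 library gave -0.43 to 0.024 for Psmb8 at day 3 and -1.01 to -0.55 at day 7, -0.98 to -0.59 for Psmb9 at day 3, -0.76 to -0.53 for Psme2 at day 7 and -0.38 to -0.15 from day 3 to day 7. Single genes changed sign in these cases, none of them called under that setting: by TPM Psmb8 (0.015), Psmb10 (0.27) and Psme1 (0.14) at day 3 and Psmf1 (0.19) at day 7, and Psmb10 at day 3 by library totals (0.014), without a filter (0.021) and without control 3 (0.053; -0.12 to 0.053 leaving out 1 library). Depth was not the limit for the 47 members past the CPM limit in every sample, and it limits Psma8 and Psmb11.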
